A study of Mus musculus with 18 samples.

Results

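The 8 libraries described here hold the sgRNA cassettes of ITPK1-WT cells recovered from 8 mice, 4 treated with IgA and 4 with vehicle, out of 18 libraries in all. They were chosen by background and arm alone: cells without the ITPK1 deletion, mice 5 to 8 as the IgA arm and mice 1 to 4 as the vehicle arm, as the deposited sample legend assigns them. The cells were sensBa/F3, a variant of Ba/F3, a mouse pro-B line that depends on interleukin-3. They carried a knockout library of 252 sgRNAs, 228 of them against 76 genes (3 sgRNAs per gene) and 24 non-targeting, and had been cultured for 10 days after transduction. They were mixed with a pool of ITPK1-KO clones carrying the same library, each background under its own tracking dye, and 20000000 cells of the mixture were placed in the peritoneum of each hCD89-transgenic mouse. The mice then received anti-hHer2 IgA or, as vehicle, PBS, and viable cells were washed out after 16 h and sorted by dye. All mice drew on a single transduced pool, so the mice replicate the treatment and not the library. The readout is DNA, so neither the cell type nor gene expression could be checked in these libraries.

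hCD89 is the human Fc receptor for IgA, found on neutrophils and other myeloid cells, and in this model it lets mouse myeloid cells act on tumour cells coated with IgA. A knockout screen under such attack asks which gene losses leave a cell over-represented or under-represented among the survivors. The library aims at genes of cell death: apoptosis begun at death receptors or at mitochondria, necroptosis through RIPK1, RIPK3 and the pore-forming protein MLKL, pyroptosis through gasdermins, and ferroptosis through oxidised membrane lipids. It also holds 2 kinases of the inositol phosphate pathway, Itpk1 and Ipmk, whose products are known to be needed for MLKL activation.

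Results turned most on 6 genes: Commd4 and Fadd, whose sgRNAs were less abundant in IgA-treated mice, and Itpk1, Ipmk, Hspbap1 and Cyld, whose sgRNAs were more abundant. These are the 6 with the lowest p-values among genes that passed the test in the same direction under both scalings used below. Their 18 sgRNA sequences, from the deposited library list, are given 5′ to 3′ to identify the reagents behind the values. Capitals mark the last 10 bases, the end next to the PAM, where mismatches to a target are tolerated least. The spacers have 20 bases and a GC content of 45 to 65%. Their genomic positions were not analysed here.
Commd4 sg-1: ctagagcacaCTCACCACGT
Commd4 sg-2: gaaactcagcACCGCGACCG
Commd4 sg-3: atcactgtcgACACTATGCT
Hspbap1 sg-1: aggaagaggaCCACCTAGCG
Hspbap1 sg-2: gtgagatgtcTCCTCAACCT
Hspbap1 sg-3: ttatgtggatGCGACGCTCG
Itpk1 sg-1: gttcgaacggCCAAGCGATG
Itpk1 sg-2: cgaacttatcCGAAAGATCG
Itpk1 sg-3: ggtgggcgagTCCTACACAG
Ipmk sg-1: caaacgatagAACTTTGGCG
Ipmk sg-2: agacgccgtaGTATTTGGGC
Ipmk sg-3: ctctaccttcTGAATACTGG
Cyld sg-1: agagaaccccCCGTTCTATG
Cyld sg-2: gttggcaattACCAACTGTG
Cyld sg-3: gaggacctttATTAGCGGAG
Fadd sg-1: tagatcgtgtCGGCGCAGCG
Fadd sg-2: aagctggagcGCGTGCAGAG
Fadd sg-3: ttcgtttgctCACGCGCTCG

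Libraries held 432050 to 808586 reads, and within an arm the log2 counts of any 2 mice correlated at r = 0.994 to 0.998. The biological coefficient of variation was 3.17% per sgRNA and 2.02% for reads summed per gene, so shifts of a few percent could pass a test. The arms were not balanced in the sort, nor in the numbering of the read files. The sample numbers in the read-file names form 2 series, taken here as sequencing sample sheets, which no label states: one holds all vehicle mice and IgA mouse 5, the other IgA mice 6, 7 and 8. Vehicle libraries came from 2000000 sorted cells each, and the IgA libraries from 1200000, 2000000, 1000000 and 657000 cells in mice 5 to 8, which is 2607 to 7937 cells per sgRNA. Thus IgA mouse 5 matches the vehicle mice in sheet, and IgA mouse 6 matches them in the number of sorted cells. Values of these 2 mice are given beside the results.

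Abundance is given as normalised CPM (counts per 1000000 reads), summed over the 3 sgRNAs of a gene, with libraries scaled by TMM over all sgRNAs unless the non-targeting scaling is named. A value is a share of the recovered pool: a higher share does not show that more such cells survived, only that they made up more of what was recovered. Arms were compared with edgeR's quasi-likelihood test on summed reads. Log2 fold changes are IgA over vehicle with their SE, and p-values are adjusted over all 76 genes by the Benjamini-Hochberg method, with 0.05 as the threshold.

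The kinase genes Itpk1 and Ipmk had the highest fold changes of all 76 genes. ITPK1 phosphorylates inositol tetrakisphosphates, and IPMK, the inositol polyphosphate multikinase, acts on neighbouring intermediates of the route to the fully phosphorylated ring. Itpk1 sgRNAs summed to 3837, 3585, 3772 and 3696 CPM in vehicle mice 1 to 4 and to 4937, 4685, 5497 and 5263 CPM in IgA mice 5 to 8. Every IgA mouse lay above every vehicle mouse, with mouse 6 the lowest of the treated. The mean rose from 3722 ± 108 to 5096 ± 357 CPM (SD, n = 4 each), a log2 fold change of 0.45 ± 0.052 (edgeR adjusted p = 1.83e-07). Scaled to the non-targeting sgRNAs it was 0.50.

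Ipmk followed closely. Its sgRNAs summed to 3313, 3231, 3049 and 3085 CPM in vehicle mice and to 4312, 3761, 4681 and 4565 CPM in IgA mice. The arms again did not overlap, and IgA mouse 6 again lay closest to the vehicle mice. The log2 fold change was 0.44 ± 0.062 (edgeR adjusted p = 4.05e-06) and 0.50 with non-targeting scaling.

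All 3 sgRNAs of each kinase gene passed the test per sgRNA. Itpk1 sg-1 rose from a mean of 1030 to 1454 CPM, sg-2 from 2199 to 2856 CPM and sg-3 from 493 to 785 CPM, log2 fold changes of 0.50, 0.37 and 0.66. The least abundant of the Itpk1 sgRNAs thus had the largest change. Ipmk sg-1 rose from 1741 to 2170 CPM and sg-3 from 1373 to 2076 CPM, log2 fold changes of 0.31 and 0.59. Ipmk sg-2 was rare, with 20 to 62 reads per library, and went from 54.9 to 83.8 CPM (log2 fold change 0.60 ± 0.198). For this sgRNA the arms overlapped, since IgA mouse 8 held 55.0 CPM, so the gene's value rests on the other two.

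Commd4 had the lowest fold change. COMMD4 belongs to the COMMD family, whose members form part of the Commander complex in endosomal recycling and have been tied to NF-κB control. Its sgRNAs summed to 13534, 12928, 12921 and 12635 CPM in vehicle mice and to 9184, 9529, 8620 and 9052 CPM in IgA mice. The lowest vehicle mouse stood far above the highest IgA mouse, with mouse 6 the highest of the treated. The mean fell from 13004 ± 378 to 9096 ± 376 CPM, 0.700 times the vehicle level (log2 fold change −0.51 ± 0.026, edgeR adjusted p = 1.61e-14). With non-targeting scaling the log2 fold change was −0.46. Commd4 sg-1 fell from 3976 to 2622 CPM, sg-2 from 4390 to 3378 CPM and sg-3 from 4638 to 3096 CPM, and the arms of each were apart.

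Hspbap1 encodes a protein named for its binding to the small heat shock protein HSPB1. It rose less than the kinases but with a small spread. Its sgRNAs summed to 13268, 12702, 13030 and 12826 CPM in vehicle mice and to 15485, 15017, 15194 and 14803 CPM in IgA mice. The arms were separate and each was tight. The log2 fold change was 0.22 ± 0.018 (edgeR adjusted p = 2.61e-10) and 0.27 with non-targeting scaling, and the 3 sgRNAs lay between 0.18 and 0.26, each past the threshold.

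**Figure D1:**
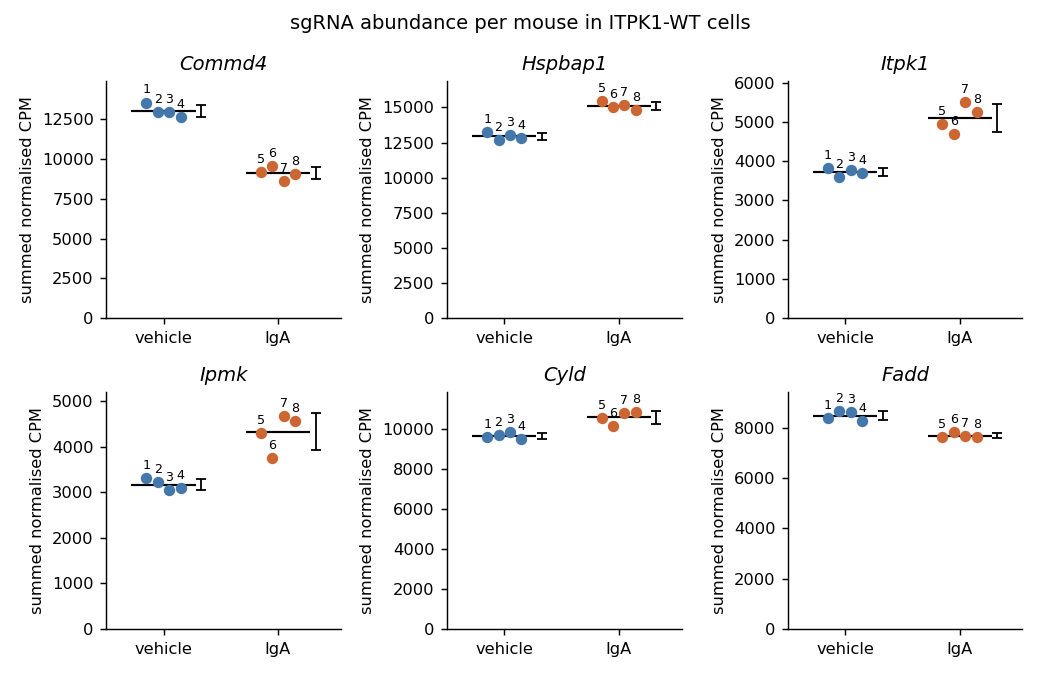
Summed normalised CPM (y axis, from 0) of the 3 sgRNAs of Commd4, Hspbap1, Itpk1, Ipmk, Cyld and Fadd in each mouse (points, numbered by mouse), with the mean (line) and SD (bar) of the 4 vehicle and the 4 IgA mice. In all 6 panels the arms do not overlap; in all but Hspbap1, where it is mouse 8, mouse 6 is the IgA mouse nearest to the vehicle mice.

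Among the genes of the death receptor pathway, Cyld and Fadd moved in opposite directions. CYLD is a deubiquitinase that trims linear and K63-linked ubiquitin chains from receptor complexes. Its sgRNAs summed to 9611, 9692, 9880 and 9532 CPM in vehicle mice and to 10543, 10179, 10832 and 10873 CPM in IgA mice. Every IgA mouse was higher, by a margin that was smallest in mouse 6. The log2 fold change was 0.13 ± 0.024 (edgeR adjusted p = 0.000202) and 0.18 with non-targeting scaling, and sg-1 and sg-3 passed the test per sgRNA.

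FADD is the adaptor that brings caspase-8 to death receptors. Its sgRNAs summed to 8386, 8679, 8611 and 8269 CPM in vehicle mice and to 7642, 7827, 7654 and 7621 CPM in IgA mice. All IgA mice were lower, and they lay close together. The log2 fold change was −0.14 ± 0.027 (edgeR adjusted p = 0.000309). With non-targeting scaling it was −0.09 (edgeR adjusted p = 0.0157), and sg-1 and sg-3 passed the test per sgRNA with all-sgRNA scaling.

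**Figure D2:**
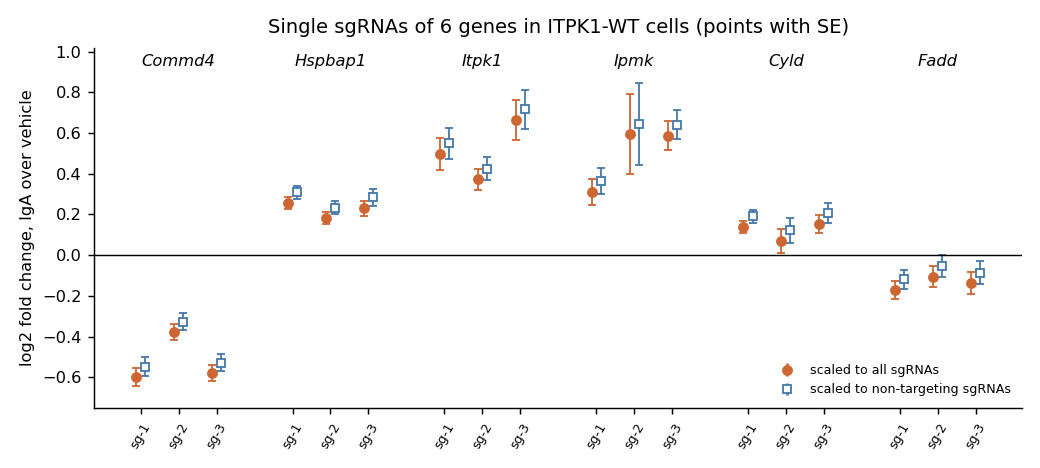
Log2 fold change of each sgRNA, IgA over vehicle (y axis), for 6 genes in ITPK1-WT cells, with all-sgRNA scaling (filled circles) and non-targeting scaling (open squares); bars are SE from edgeR. The 3 sgRNAs of every gene lie on the same side of 0 under both scalings; Ipmk sg-2 has the widest bars, SE 0.198 and 0.201.

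Over all targeted genes, 28 of 76 passed the threshold with all-sgRNA scaling (36.8% of genes tested). Of these, 16 were higher (21.1%) and 12 lower (15.8%) in IgA mice. The changes were mostly small: 4 of the 28 exceeded 0.2 on the log2 scale, namely Commd4, Itpk1, Ipmk and Hspbap1, and 20 lay within 0.1. All 3 sgRNAs pointed the same way in 23 of the 28 genes and 2 of 3 in the other 5. In 4 genes, the same ones that exceeded 0.2, all 3 sgRNAs passed the test by themselves; 6 genes had 2 such sgRNAs, 16 had 1 and 2 had none. Arms did not overlap in 24 of the 76 genes (31.6%), and 19 of these 24 were among the 28.

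The scaling changed the balance of higher and lower genes. Scaled to the summed reads of the non-targeting sgRNAs, 34 genes were higher (44.7%) and 2 lower (2.63%), the latter being Commd4 and Fadd. The median over all 76 genes was −0.0033 with all-sgRNA scaling and 0.049 with non-targeting scaling, a shift of 0.052. The 16 genes that were higher with all-sgRNA scaling were also higher with the other, and 18 further genes joined them. Of the 12 lower genes, 10 did not pass with non-targeting scaling, and no gene passed in opposite directions. For genes lower by about this shift or less with all-sgRNA scaling, the direction depends on the reference, all sgRNAs or the non-targeting ones. A change that passes with 1 scaling is reported as such below.

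**Figure D3:**
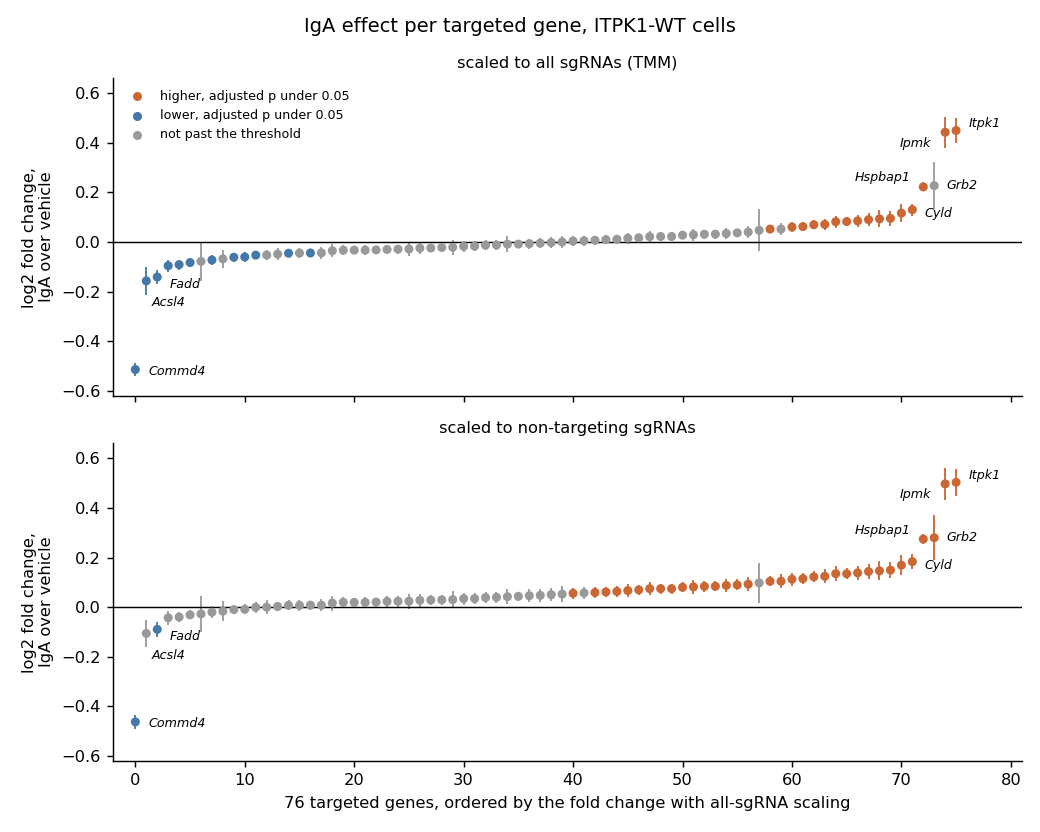
Log2 fold change with SE for each of the 76 genes (y axis), ordered along the x axis by its value with all-sgRNA scaling (upper panel) and shown in the same order with non-targeting scaling (lower panel); orange and blue points are higher and lower at an adjusted p under 0.05, grey points are not past it. The split is 16 higher and 12 lower in the upper panel and 34 higher and 2 lower in the lower, where the whole row sits 0.052 higher.

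The non-targeting sgRNAs themselves took a smaller share of reads in IgA mice. They held 13.5% ± 0.0303 of the reads in vehicle mice and 13.1% ± 0.190 in IgA mice, a difference of −0.41 percentage points (exact two-sided permutation test over mice, p = 0.0286, the smallest that 4 against 4 mice can give). The IgA mice held 13.18, 13.24, 13.01 and 12.82% in mice 5 to 8, all under the lowest vehicle mouse at 13.44%. The lowest share was that of mouse 8, which also gave the fewest sorted cells, and the highest that of mouse 6, which gave the most. The part of the number of sorted cells in this order was not tested.

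Single non-targeting sgRNAs give the spread among guides that share no target. With all-sgRNA scaling their log2 fold changes had a median of −0.059 and an SD of 0.073, and ran from −0.21 to 0.16, with 19 of 24 below 0. Of the 24, 1 was called higher (4.17%) and 8 lower (33.3%), beside 34 of 228 targeting sgRNAs called higher (14.9%) and 27 lower (11.8%). Over all 252 sgRNAs the calls were 35 higher (13.9%) and 35 lower (13.9%), 70 in all and 45 without IgA mouse 7. With non-targeting scaling, 4 of the 24 were called higher (16.7%) and none lower. Control guides thus passed the threshold per sgRNA too, and with all-sgRNA scaling were called lower more often (33.3%) than targeting ones (11.8%). A call on a single guide at these effect sizes is therefore not particular to guides with a target. The test on summed reads held no control sums and gives no such share for genes. Of the 28 genes it called, 20 lay within 0.1 on the log2 scale.

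The targeting sgRNAs outside the full range of the controls were few. Above it lay 23 of 228, including all 3 of Itpk1, Ipmk and Hspbap1, 2 each of Grb2 and Ltbr, and 1 each of 10 other genes. Below it lay 5, of which 3 were the Commd4 sgRNAs, 1 targeted Acsl4 and 1 targeted Txnl4b. No sgRNA of Cyld or Fadd lay beyond this full range, although both genes passed the test on summed reads. Its ends were set by the rarest controls, sg8 (574 CPM in vehicle mice, −0.21) and sg9 (2158 CPM, 0.16). The other controls ran from −0.11 (sg3) to 0.052 (sg14). All Cyld sgRNAs (0.14, 0.070 and 0.15) lay above these, and Fadd sg-1 (−0.17) and sg-3 (−0.14) below. The rarest of these other controls was sg14 (4322 CPM in vehicle mice). Except for Cyld sg-1, the Cyld and Fadd sgRNAs were all rarer than that, so the narrower range does not match them in abundance. Cyld sg-2 (1875 CPM) was also rarer than sg9, and sg9 lay above all 3 Cyld values.

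**Figure D4:**
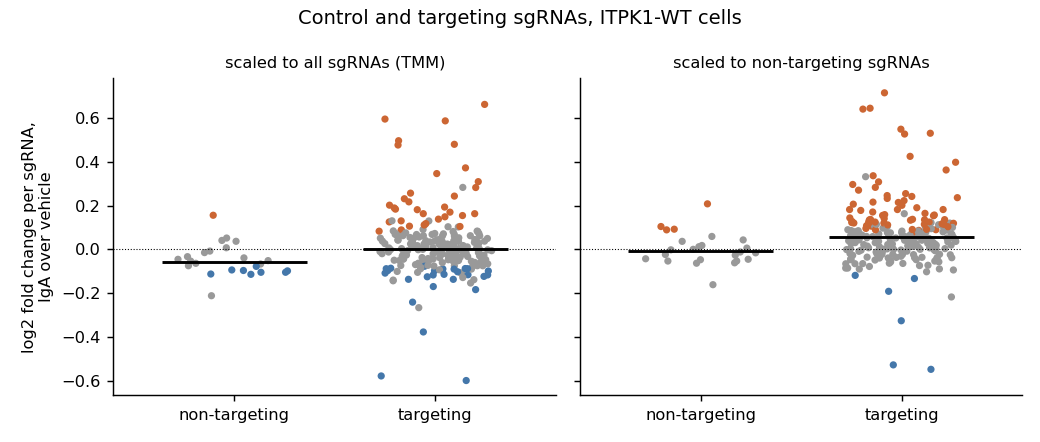
Log2 fold change per sgRNA, IgA over vehicle (y axis), for the 24 non-targeting and 228 targeting sgRNAs, with all-sgRNA scaling (left) and non-targeting scaling (right); orange and blue are higher and lower at an adjusted p under 0.05, and black lines are medians. With all-sgRNA scaling the control median is −0.059 and that of the targeting sgRNAs 0.0035.

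The death receptor and TNF receptor complex list had 11 members in the library. With all-sgRNA scaling 3 rose (Cyld, Spata2 and Tnfrsf1a), 2 fell (Fadd and Ripk1) and 6 did not pass, with a list median of 0.0039 beside −0.0033 over all genes. SPATA2 is the bridge that ties CYLD to the linear ubiquitin ligase at the receptor. Spata2 sgRNAs averaged 6533 ± 275 CPM in vehicle mice and 7091 ± 226 CPM in IgA mice (log2 fold change 0.12 ± 0.036, edgeR adjusted p = 0.0126), and the arms overlapped; the call was lost without IgA mouse 7. Tnfrsf1a, which encodes the main TNF receptor, rose by 0.061 ± 0.022 with no sgRNA past the threshold alone, and did not pass without vehicle mouse 2 or 4 or IgA mouse 5 or 7. Casp8 had a value of −0.032 and Fas of 0.0039, neither past the test with this scaling. With non-targeting scaling the list held 6 higher genes and 1 lower. Over all genes 21.1% were higher and 15.8% lower with all-sgRNA scaling, and 44.7% higher and 2.63% lower with non-targeting scaling. Counts for this list and for those that follow are to be read beside these shares.

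Ripk1, the kinase at the branch between survival and death signalling, had a log2 fold change of −0.07 ± 0.021 (edgeR adjusted p = 0.0116). Its sgRNAs summed to 11983, 11871, 12160 and 12176 CPM in vehicle mice and to 12009, 11287, 11274 and 11307 CPM in IgA mice. Mouse 5 lay within the vehicle range, and mice 6, 7 and 8 lay below it. These 3 are the IgA mice on the second sample sheet. For the summed Ripk1 reads the change thus cannot be told apart from the sheet. Within the first sheet its log2 fold change was −0.0043, and with non-targeting scaling −0.02. Without IgA mouse 7 the gene did not pass. Of its sgRNAs only sg-1 passed alone (−0.18). In mouse 5 sg-1 held 2703 CPM, below every vehicle mouse (lowest 2841 CPM). In the same mouse sg-2 (4545 CPM) and sg-3 (4762 CPM) lay above every vehicle mouse.

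Of 4 TNF receptor superfamily genes without a death domain, Ltbr, the lymphotoxin beta receptor, rose (0.09 ± 0.026) and the other 3 did not pass. With non-targeting scaling Ltbr and Tnfrsf8 were higher, beside 44.7% of all genes. The Ltbr sgRNAs disagreed: sg-1 and sg-3 rose by 0.24 and 0.22, while sg-2, the most abundant, had a log2 fold change of −0.077 that also passed the test.

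The necroptosis genes downstream of RIPK1 were split. Ripk3, the kinase that phosphorylates MLKL, rose from 9710 ± 196 to 10295 ± 314 CPM (log2 fold change 0.08 ± 0.025, edgeR adjusted p = 0.0123), and did not pass without IgA mouse 7 or 8. Zbp1, a sensor of Z-form nucleic acid that engages RIPK3, fell from 15278 ± 231 to 14412 ± 222 CPM (−0.08 ± 0.017, edgeR adjusted p = 0.000798), and with non-targeting scaling its value of −0.03 did not pass. Mlkl sgRNAs stood at 10706 ± 95 CPM in vehicle and 10663 ± 145 CPM in IgA mice, with a log2 fold change of −0.0063 (edgeR adjusted p = 0.822). Pgam5 had a value of 0.052 that did not pass with this scaling (edgeR adjusted p = 0.0994), although its arms did not overlap. With non-targeting scaling 2 of the 4 were higher and none lower, beside 44.7% of all genes higher. The log2 fold changes of Itpk1 and Ipmk, given above, were larger than those of Mlkl and Ripk3. Neither cutting by these sgRNAs nor expression of their targets was measured, and the reason for the difference was not tested.

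Of 8 mitochondrial apoptosis genes, 1 rose, 2 fell and 5 did not pass with all-sgRNA scaling, beside 36.8% of all genes called. With non-targeting scaling 2 were higher and none lower. Bbc3, which encodes the BH3-only protein PUMA, rose from 11693 ± 179 to 12381 ± 210 CPM (0.08 ± 0.019, edgeR adjusted p = 0.00164). Bid, cut by caspase-8 to link death receptors to mitochondria, fell from 15703 ± 120 to 15030 ± 347 CPM (−0.06 ± 0.018, edgeR adjusted p = 0.0116), but had a value of −0.01 with non-targeting scaling. The pore-forming effectors were not called with all-sgRNA scaling: Bax had a log2 fold change of −0.0083 and Bak1 of 0.032. With non-targeting scaling Bak1 was higher (0.084).

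Downstream of the mitochondria, the list of the apoptosome, its inhibitors and executioner caspases had 7 members, of which 2 rose, 1 fell and 4 did not pass. APAF1, the scaffold of the apoptosome, rose by 0.07 ± 0.018, and Casp9, the protease it activates, by 0.05 ± 0.018, a call lost without IgA mouse 5. One of the APAF1 sgRNAs, sg-1, pointed the other way at −0.027. CASP2, an initiator-type caspase, fell by 0.09 ± 0.021, and its value of −0.04 did not pass with non-targeting scaling. With non-targeting scaling 4 of the 7 were higher and none lower, beside 44.7% of all genes higher.

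In the list of inflammatory caspases and pyroptosis, 2 of 4 rose with all-sgRNA scaling, beside 21.1% of all genes. Gsdmd, the pore-former of pyroptosis, rose from 13648 ± 197 to 14257 ± 341 CPM (0.06 ± 0.018, edgeR adjusted p = 0.0116). Casp11, listed by RefSeq as Casp4 and known to cleave gasdermin D, rose by 0.09 ± 0.034 with overlapping arms, and passed in 3 of the 8 fits that left out 1 mouse (vehicle mouse 2 or 3 or IgA mouse 6). A single Casp11 sgRNA, sg-2, passed the test alone. Casp1 and Casp12 did not pass with all-sgRNA scaling. With non-targeting scaling 3 of the 4 were higher and none lower, beside 44.7% of all genes higher.

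Of the 3 genes on the ferroptosis list, 2 fell and 1 did not pass with all-sgRNA scaling, beside 15.8% of all genes lower. None passed with non-targeting scaling. Acsl4, which loads arachidonate into membrane lipids, had sgRNA sums of 3511, 3579, 3696 and 3569 CPM in vehicle mice and 3319, 3415, 3103 and 3006 CPM in IgA mice. The arms did not overlap, with the lowest values in mice 7 and 8. Its log2 fold change of −0.16 ± 0.055 (edgeR adjusted p = 0.0280) was the second lowest of all genes, but it passed in only 1 of the 8 fits that left out 1 mouse, the one without mouse 6. With non-targeting scaling it was −0.11 and did not pass. Alox15, a lipoxygenase, fell by 0.05 ± 0.017, did not pass without IgA mouse 5 or 6, and had a value of −0.00087 with non-targeting scaling. Of the Alox15 sgRNAs only sg-3 passed alone (−0.13), and sg-1 pointed the other way at 0.052. Without its most abundant sgRNA the gene had a value of −0.010 that did not pass.

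None of the 3 interferon receptor genes (Ifnar1, Ifngr1 and Ifngr2) passed with all-sgRNA scaling, where their values ran from 0.022 to 0.037. All 3 were higher with non-targeting scaling, as were 44.7% of all genes. Their fold changes were thus no larger than the shift between scalings. Of 3 genes known for roles in growth, none passed with all-sgRNA scaling. Grb2, an adaptor of growth factor signalling, had a log2 fold change of 0.23 ± 0.094 (edgeR adjusted p = 0.0605) and 0.28 with non-targeting scaling (edgeR adjusted p = 0.0119). Its sgRNAs were rare, at 894, 798, 1044 and 1075 CPM in vehicle mice and 1011, 1095, 1095 and 1257 CPM in IgA mice. The arms overlapped, and mouse 8 was the highest. With all-sgRNA scaling Grb2 passed when vehicle mouse 3 or 4 or IgA mouse 6 was left out.

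A further 5 genes are known for roles confined to other tissues, such as Sycp2, of the meiotic synaptonemal complex, and Kcnip1, a partner of neuronal potassium channels. Whether sensBa/F3 cells express them was not measured. Sycp2 rose by 0.10 ± 0.029 and Kcnip1 by 0.07 ± 0.022, Jph3, a junctophilin of the brain, fell by 0.04 ± 0.017, and Foxi1 and Defb1 did not pass. The calls of Sycp2 and Kcnip1 were lost without IgA mouse 7 or 8, and that of Jph3 in every such fit but the one without IgA mouse 5. With non-targeting scaling 4 of the 5 were higher, beside 44.7% of all genes. With all-sgRNA scaling 21.1% of all genes were higher and 15.8% lower. Shifts of up to 0.10 were thus seen in this list too, the size at which most of the death genes above were called. These 5 genes were chosen with earlier results known, so they do not measure how often guides without a role in these cells shift. Of the 22 genes on no list, 2 rose (Hspbap1 and 4732429D16Rik, which RefSeq lists as Cd300ld), 3 fell (Commd4, Tmem57 and Tnfaip8l1) and 17 did not pass; Tnfaip8l1 is outside the rule for naming genes and was named after its value was seen. The call of 4732429D16Rik was lost without IgA mouse 5, and that of Tnfaip8l1 in all fits without 1 mouse except those without IgA mouse 5 or 8. Without its most abundant sgRNA, 4732429D16Rik had a value of 0.032 that did not pass.

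The ITPK1-WT pool sequenced before injection, a single library, shows where each arm went from there. It lay on the second sample sheet, so the sheet differs from that of the vehicle mice, and no test was made. Itpk1 and Ipmk sgRNAs were already sparse in it, at 24.3% and 23.0% of the mean reads of a non-targeting sgRNA, beside 74.0% for Commd4 and 77.0% for Hspbap1. The share of Itpk1 sgRNAs changed by −0.16 ± 0.041 on the log2 scale in vehicle mice (SD, n = 4) and by 0.30 ± 0.104 in IgA mice, and that of Ipmk by −0.31 ± 0.056 and 0.15 ± 0.144. In both genes vehicle mice lay below the starting share, and IgA mice above it except mouse 6 for Ipmk at −0.057.

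The Commd4 share changed by 0.041 ± 0.040 in vehicle mice and by −0.47 ± 0.057 in IgA mice, and that of Hspbap1 by −0.023 ± 0.026 and 0.21 ± 0.028. For Cyld the changes were 0.064 ± 0.020 and 0.20 ± 0.047, above the starting share in both arms, and for Fadd 0.047 ± 0.031 and −0.088 ± 0.015. The Acsl4 share lay below that of the start in both arms, with changes of −0.44 ± 0.030 and −0.60 ± 0.082.

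**Figure D5:**
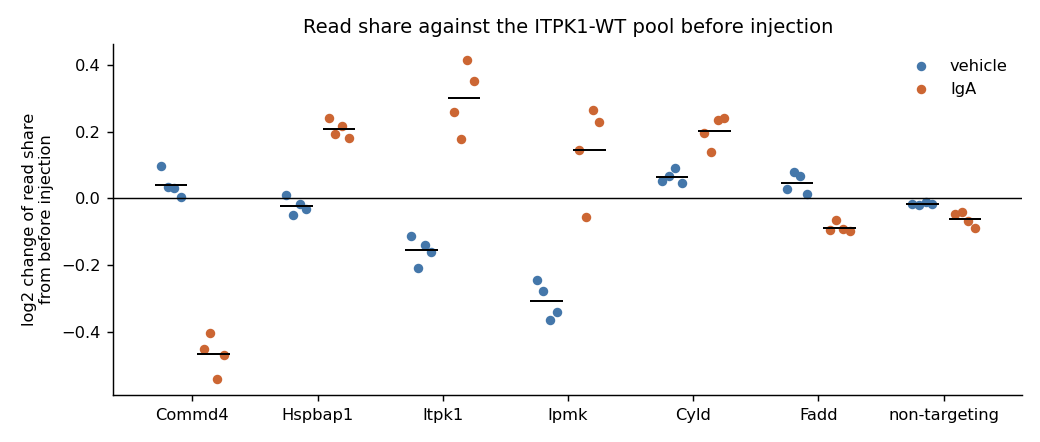
Log2 change of the share of reads from the ITPK1-WT pool before injection (y axis) for 6 genes and the summed non-targeting sgRNAs; points are mice (vehicle blue, IgA orange) and lines are means of 4. Itpk1 averages −0.16 in vehicle and 0.30 in IgA mice, and Commd4 0.041 and −0.47.

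Across the 228 targeting sgRNAs, the fold change under IgA was higher where the sgRNA was rarer before injection (r = −0.33 with its log2 reads there, and −0.23 over 222 sgRNAs without those of Itpk1 and Ipmk). Its correlation with GC content was −0.17, and −0.38 over the 24 non-targeting sgRNAs, whose mean GC content was 54.8% against 50.9% for targeting ones. These correlations run across sgRNAs of the same libraries, share depth and base composition, and are given as a description.

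Of the IgA mice, mouse 6 most often lay nearest to the vehicle mean: it showed the smallest shift in the called direction in 18 of the 28 genes, beside 3, 5 and 2 genes for mice 5, 7 and 8. Mouse 6 still lay on the called side in 27 of the 28 genes, and the others in all 28. Its log2 difference from the vehicle mean was −0.45 for Commd4, 0.33 for Itpk1, 0.25 for Ipmk and 0.21 for Hspbap1. As the only IgA library from as many sorted cells as the vehicle libraries, mouse 6 gives these differences at a matched number of sorted cells, but on the other sample sheet. Cells were sorted after treatment, so their number may itself depend on it, which was not tested. Mouse 5, on the sheet of the vehicle mice, gave −0.50, 0.41, 0.44 and 0.26 for the same genes in the order named. All 28 called genes kept their sign in the fit of mouse 5 against mice 1 to 4. Every mouse counted here also took part in the test that chose the 28 genes. That choice favours agreement in sign, so the counts of genes on the called side are a description and no separate support.

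With the sample sheet as a covariate, which also leaves mouse 5 as the only IgA mouse compared within a sheet, 10 of the 28 genes passed: Commd4, Hspbap1, Itpk1, Ipmk, Cyld, Fadd, Bbc3, 4732429D16Rik, Alox15 and Casp9. In the fit restricted to the first sheet, 14 of the 28 passed. Both fits rest on 1 IgA mouse against 4 vehicle mice and assume that it varies as the other mice of its fit do, so passing them does not separate the treatment from the sheet over mice. In mice 6, 7 and 8 the treatment and the sheet cannot be told apart. Leaving out each mouse in turn, 14 of the 28 passed in all 8 fits, the 6 genes whose sequences are given above among them. The count fell to 17 genes without IgA mouse 7.

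ITPK1-KO cells of the same mice, a pool of 6 clones, show where the ITPK1-WT values were particular. The difference of the IgA effect between backgrounds passed the test in 5 of 76 genes (6.58%). For Itpk1, whose sgRNAs have no intact target gene in ITPK1-KO cells, the value there was −0.03 ± 0.030, and the difference 0.48 ± 0.048 (edgeR adjusted p = 8.88e-11). For Ipmk it was −0.17 ± 0.109 in ITPK1-KO cells and the difference 0.62 ± 0.126 (edgeR adjusted p = 0.000300). Commd4 fell in both, by 0.25 ± 0.028 in ITPK1-KO cells, and fell further in ITPK1-WT cells (difference −0.26 ± 0.040, edgeR adjusted p = 3.47e-06). Ripk1 fell further in ITPK1-KO cells (−0.26 ± 0.022, difference 0.19 ± 0.031), and Zbp1 differed by −0.09 ± 0.025 with all-sgRNA scaling (edgeR adjusted p = 0.0155) but not past the threshold with non-targeting scaling (−0.06, edgeR adjusted p = 0.190), nor without mouse 2, 3, 4, 5 or 8. Hspbap1 rose in ITPK1-KO cells by 0.24 ± 0.021 and its difference of −0.01 ± 0.030 did not pass, nor did that of Cyld (0.19 ± 0.025 in ITPK1-KO cells, difference −0.05 ± 0.035). Dye and background cannot be told apart in this comparison.

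The authors' deposited table for the same contrast called none of the 252 sgRNAs at an FDR of 0.05, where its lowest FDR was 0.998, and gave 4 with a p-value under 0.05. In the authors' deposited table these were Ipmk sg-3 (log2 fold change 0.67, p = 0.0103), Commd4 sg-3 (−0.54, p = 0.0136), Commd4 sg-1 (−0.52, p = 0.0269) and Itpk1 sg-2 (0.47, p = 0.0365). Log2 fold changes in the authors' deposited table correlated at r = 0.986 across sgRNAs with those of the all-sgRNA scaling and lay higher by a median of 0.066, and by 0.014 than those of the non-targeting scaling. Scaling and test both differ between these analyses, and which of them moves the count of calls was not tested.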

How the data were processed

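Counts were deposited as raw reads for each sgRNA. Alignment to the library and removal of mismatched reads are stated in the series' design text, as is scoring with MAGeCK RRA (version 0.5.6). For the aligner, the name is not given in the sources used here. For this contrast the authors deposited log2 fold changes together with a p-value and FDR per sgRNA. Treatment and sorted cells (another unit, cells) come from the deposited sample legend. Not used were 4 columns of per-sample values that the deposited tables join. A chi-square test on the counts of each pair of libraries of an arm gave 2.24 to 5.62 per degree of freedom, so none were duplicates. All 76 gene names matched RefSeq symbols or synonyms.

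Tests were run with edgeR 4.0.16 under R 4.3.3 (TMM scaling, glmQLFit, glmQLFTest): per sgRNA averaging 10 reads or more, and on reads summed over the sgRNAs of a gene, with the arm as the only term. Both were repeated with libraries scaled to the summed reads of the non-targeting sgRNAs. Backgrounds were compared through the interaction term in a fit of all 16 libraries recovered. Libraries of both backgrounds of a mouse share that mouse, so mouse numbers pair them; the deviations of such pairs from group means correlated, across 238 sgRNAs averaging 500 reads or more, at −0.084 to 0.26. The fit was tested on simulated data. Reads carry no molecular identifiers, so counting error is a lower limit. Alternatives were DESeq2 1.42.0, limma 3.58.1 on mean log2 CPM (prior count 2), other scalings and filters, thinning, the sheet, and each mouse left out.

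The naming rule took all genes called, up to 25 by p, the 5 highest and the 5 lowest fold changes, the 5 lowest p with non-targeting scaling, and examples from 11 lists, which hold 54 of the 76 genes. Genes of the library and lists were chosen with earlier results of these data known. Some genes that the rule covers are not reported here, though counts include them.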

Additional observations from a re-analysis of the deposited data

Results flagged for a closer look

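In 2 of 54 groups of 4 mice checked, 1 mouse lay apart from the other 3 by more than Dixon's 95% limit for the gap over the group's range, and chance gives about 1 in 20. For Ripk1 the IgA mouse 5 held 12009 CPM beside 11287, 11274 and 11307 CPM in mice 6 to 8 (gap 0.956 of the range). For Fadd the IgA mouse 6 held 7827 CPM beside 7642, 7654 and 7621 CPM (gap 0.841 of the range), still below every vehicle mouse.

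The IgA effect differed between ITPK1-WT and ITPK1-KO cells in 5 genes by edgeR's interaction test. The differences of log2 fold changes, ITPK1-WT minus ITPK1-KO, were 0.48 for Itpk1, 0.62 for Ipmk, 0.19 for Ripk1, −0.26 for Commd4 and −0.090 for Zbp1. With non-targeting scaling Itpk1, Ipmk, Ripk1 and Commd4 passed, Zbp1 did not, and Tmem57 joined them with a difference of 0.12 (edgeR adjusted p = 0.0354).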

How the results depend on the processing

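The count of 28 called genes became 10 (7 higher, 3 lower) with the sample sheet as a covariate and 15 (8 higher, 7 lower) within the first sheet, an alternative added after the data were seen, where the lone IgA mouse is assumed to vary like the vehicle mice. The 70 called sgRNAs became 17 (11 higher, 6 lower) and 28 (14 each way). Leaving out each mouse in turn gave 17 to 32 genes and 45 to 94 sgRNAs, lowest without IgA mouse 7 and highest without IgA mouse 6, and 4 to 6 genes for the difference between backgrounds. With the mouse as a replicate block that difference was again called in 5 genes. Under the other alternatives 21 to 36 genes were called; among them limma on mean log2 CPM gave 21, and the reads without each gene's most abundant sgRNA, also added after the data were seen, gave 22, of which 18 were among the 28. The shift of the non-targeting share stayed between −0.47 and −0.33 percentage points without each mouse, where 3 against 4 mice can reach no exact p below 0.0571. No named gene changed sign past the threshold under any alternative run. The cause of these changes was not tested. Rare sgRNAs, such as Ipmk sg-2 and those of Grb2, are limited by depth.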
